A study of Homo sapiens with 6 samples.

Results

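The genes described here are 34 components of the unfolded protein response and the integrated stress response, of 21676 gene symbols in the count table. They were taken from a list of symbols and comprise 5 stress sensors, 12 genes of the arm that runs through the transcription factor ATF4, and 17 genes of the arms that run through IRE1 with XBP1 and through ATF6. All 34 had a row in the table and passed the filter on low counts. The RNA came from the 83 cell line, which the submitters name as SACC, an abbreviation that usually stands for salivary adenoid cystic carcinoma. One group of 3 libraries came from control cells and the other group of 3 libraries from cells that overexpress ApoD, a secreted lipocalin that enters the secretory pathway through the endoplasmic reticulum (ER). The construct, the vector of the control cells, the time after its introduction and whether cells were selected or cloned are not given in the labels. The labels number the libraries within each group but do not name separate cultures, so a p-value here weighs a difference against the scatter of these libraries alone, and that scatter may be technical.

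When unfolded proteins build up in the ER, the membrane sensors PERK (EIF2AK3), IRE1 (ERN1) and ATF6 signal to the nucleus. IRE1 splices XBP1 mRNA and ATF6 is cut to release a transcription factor, and both raise ER chaperones and the machinery that returns misfolded proteins to the cytosol for degradation. PERK, like the kinases GCN2 (EIF2AK4) and HRI (EIF2AK1), phosphorylates the initiation factor eIF2, which lowers protein synthesis in general and raises translation of ATF4 and of a few other mRNAs. Splicing of XBP1, cleavage of ATF6, phosphorylation and translation cannot be read from counts per gene.

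Both arms held genes that rose and genes that fell. With ApoD overexpression 10 of the 34 genes rose and 3 fell at an edgeR adjusted p of 0.05, which is 38.2% of them beside 48.8% of all 14629 genes tested. In the ATF4 arm 4 of 12 rose (ATF4, ATF5, PPP1R15A and STC2) and 1 fell (DDIT4), and in the IRE1/XBP1 and ATF6 arm 6 of 17 rose (XBP1, DNAJB11, HYOU1, SDF2L1, SYVN1 and EDEM1) and 1 fell (HERPUD1). Among the sensors 1 of 5 fell, EIF2AK3. The share of all tested genes that rose was 24.2%, and the share that fell was 24.6%. The median log2 fold change, here always ApoD overexpression over control, was 0.16 in the ATF4 arm, 0.15 in the IRE1/XBP1 and ATF6 arm, −0.0039 among the sensors and −0.017 over all tested genes. The 2 changes of more than 2-fold were both in the ATF4 arm and in opposite directions, ATF5 upward and DDIT4 downward. Over all tested genes, 2101 of 14629 passed with a change of more than 2-fold. Of the 34 genes 30, or 88.2%, changed by less than 1.5-fold, beside 65.1% of all tested genes.

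Read counts of these genes were mostly high, and abundant genes tended towards higher values with ApoD overexpression. Of the 34 genes 32 had a mean count of at least 500, and 13 of those 32, 40.6%, passed the test, beside 54.3% of the 9040 genes of that abundance. The median log2 fold change of those 9040 genes was 0.10 and that of the 32 genes 0.15. Of the 32 genes 90.6% changed by less than 1.5-fold, beside 76.5% of the 9040. Scaling by library totals shifted the median of all tested genes to −0.13 and gave 7 rises and 6 falls among the 34, with 36.8% of all calls upward in place of 49.6%. Removing the trend of each library with abundance gave 6 rises and 5 falls. Of the 13 calls, 7 held under all 12 alternative fits: ATF5, DDIT4, PPP1R15A, XBP1, DNAJB11, SDF2L1 and SYVN1.

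**Figure D1:**
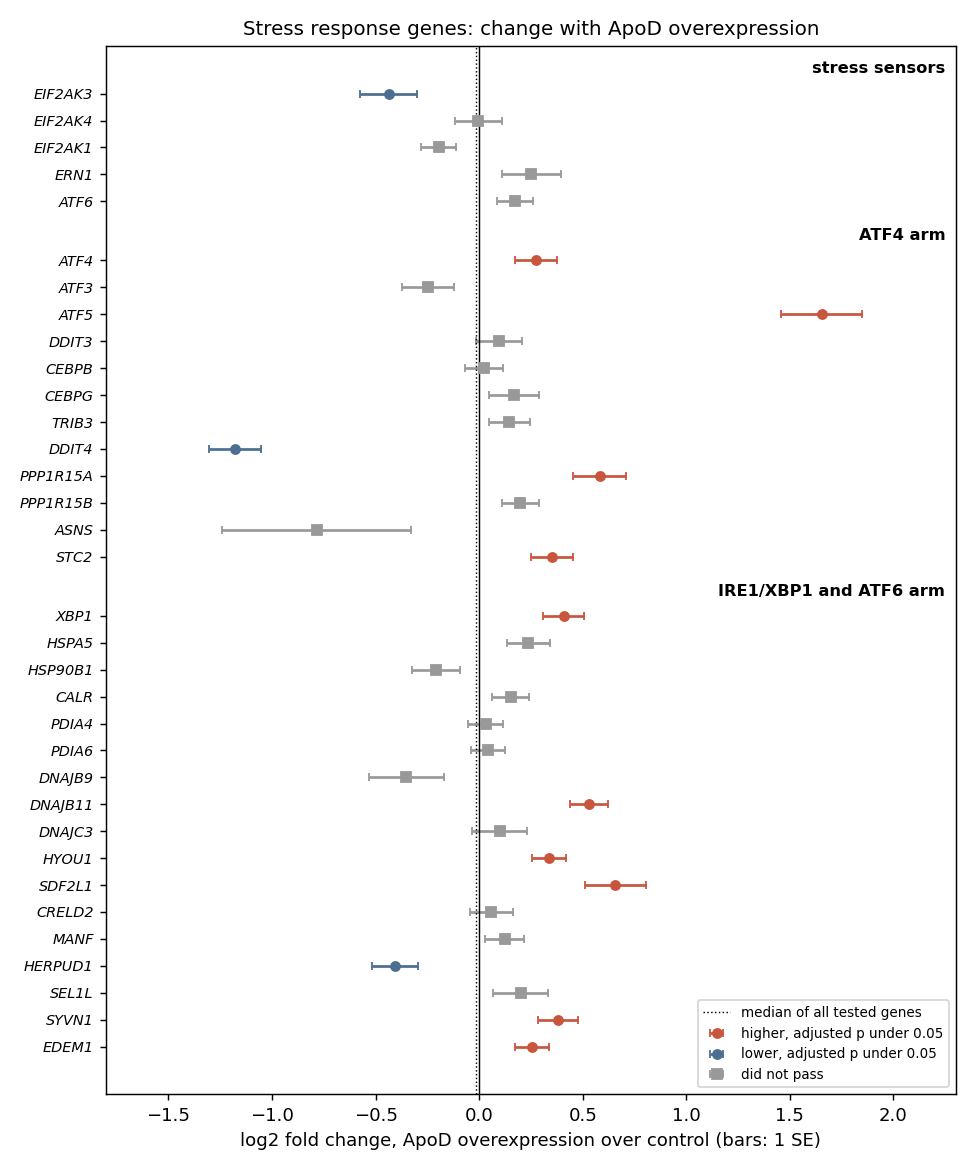
Log2 fold change of each of the 34 genes (x axis, ApoD overexpression over control, bars 1 SE) by arm (y axis), with the dotted line at the median of all tested genes, −0.017. Red circles rose, blue circles fell and grey squares did not pass; ATF5 and DDIT4 stand apart at 1.65 and −1.18, and the IRE1/XBP1 and ATF6 arm lies between −0.41 and 0.66.

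The libraries held between 37542568 and 40416964 counts. APOD itself, the targeted gene, had 9, 8 and 2 counts in controls against 628, 528 and 625 in the ApoD overexpression libraries, as labelled. The epithelial markers EPCAM, KRT8 and KRT18 were abundant in every library, with 3011 to 4068 counts per 1000000 of the scaled library (CPM) summed over 8 such markers in controls and 3546 to 4050 CPM with ApoD overexpression. Of these 8 markers 4 fell and 1 rose: EPCAM, CDH1, KRT14 and KRT19 had log2 fold changes of −0.30 ± 0.086, −1.29 ± 0.11, −1.75 ± 0.21 and −2.46 ± 0.36, and KRT7 rose by 0.48 ± 0.14, and the part of these changes in the results below was not tested. Of markers of adenoid cystic carcinoma MYB and NFIB had at least 198 counts in each library, while KIT and SOX10 were not analysed here. Markers of other cell types were mostly low or absent, but COL1A1 and CD68 were not. The sum of 6 fibroblast markers was 26.9 to 32.6 CPM in controls and 9.85 to 13.8 CPM with ApoD overexpression. At most 1 count of COL1A2, DCN or LUM was found in any library, and most of the sum came from COL1A1. The 2 fibroblast markers tested, COL1A1 and COL3A1, both fell. Summed levels of 5 immune markers were 15.8 to 32.9 and 36.7 to 38.7 CPM, nearly all from CD68. CD68 had 620 to 1353 counts in controls and 1369 to 1449 with ApoD overexpression. It rose by 0.57 ± 0.21 on the log2 scale (edgeR adjusted p = 0.0384). The 3 endothelial markers summed to 8.01 to 13.3 and 1.35 to 2.297 CPM, and all 3 fell. The part of these changes in the results below was not tested. The share of mitochondrially encoded counts was 4.10% to 4.50% in controls and 3.19% to 3.54% with ApoD overexpression, and 18591 to 18685 genes had a count in controls against 17378 to 17789 with ApoD overexpression; the part of either in the results below was not tested.

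Of the stress sensors, EIF2AK3 fell and the other 4 did not pass. EIF2AK3, the ER kinase PERK, was at 24.99, 22.8 and 20.4 CPM in the controls and 19.1, 13.9 and 17.4 CPM with ApoD overexpression. The groups did not overlap, and the gene fell by 0.44 ± 0.14 (SE) on the log2 scale (edgeR adjusted p = 0.0202), to a fold of 0.739. The lowest value came from ApoD overexpression replicate 2, and the call was lost without that library (log2 fold change −0.33, adjusted p = 0.0578 by edgeR) and without control replicate 2 (−0.43, adjusted p = 0.0616 by edgeR). EIF2AK1, the kinase HRI that responds to heme lack and mitochondrial stress, was at 354, 341 and 326 CPM in the controls and 299, 283 and 310.03 CPM with ApoD overexpression. Its groups did not overlap either, yet it missed the threshold, with a log2 fold change of −0.20 ± 0.085 (edgeR adjusted p = 0.0751). It passed as lower both when scaled by library totals (−0.31) and once the abundance trend was taken out (−0.40). Of its 5550 exon bases in GENCODE, 532 overlap AIMP2 on the opposite strand, a gene that rose by 1.38 ± 0.15 on the log2 scale.

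EIF2AK4, the amino acid sensor GCN2, had a log2 fold change of −0.0039 ± 0.11, the smallest of the 5 sensors in size. ERN1, which encodes IRE1, and ATF6 did not pass, at log2 fold changes of 0.25 ± 0.14 and 0.17 ± 0.088 (edgeR adjusted p = 0.165 and 0.123). ATF6 passed as higher without ApoD overexpression replicate 2 (0.22, adjusted p = 0.0422 by edgeR), and ERN1 without control replicate 3 (0.41, adjusted p = 0.0499 by edgeR). Of the 5 sensors, 2 had libraries that lay wholly below the controls and 1 wholly above, where 29.7% and 29% of all tested genes did so.

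Among the transcription factors of the ATF4 arm, ATF4 and ATF5 rose. ATF4 mRNA, whose translation is what eIF2 phosphorylation raises, was at 207, 195 and 222 CPM in the controls and 226, 282 and 249 CPM with ApoD overexpression. All 3 ApoD overexpression libraries lay above the highest control, by a small margin for replicate 1, and the rise was 0.28 ± 0.10 on the log2 scale (edgeR adjusted p = 0.0392). This call was lost more often than the other 12 calls, in 7 of 12 alternatives, with an adjusted p that ranged from 0.017 to 0.581 over the alternatives. The losses include fits without control replicate 1 (0.28) or replicate 2 (0.23), without ApoD overexpression replicate 2 (0.18) or replicate 3 (0.31), with scaling by library totals (0.16) and once the abundance trend was taken out (0.071); the last had the smallest fold change. Pseudogenes named ATF4P1 to ATF4P4 in GENCODE can share its reads.

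ATF5, a relative of ATF4 whose mRNA is likewise translated preferentially when eIF2 is phosphorylated, showed the largest change of the 34. It was at 10.8, 8.69 and 6.13 CPM in the controls and 21.4, 30.1 and 29.02 CPM with ApoD overexpression. Every ApoD overexpression library lay well above the highest control, and the fold was 3.15 (log2 fold change 1.65 ± 0.20, edgeR adjusted p = 4.11e-05). In GENCODE 626 of the 2954 exon bases of ATF5 overlap exons of NUP62 on the opposite strand. Counts of NUP62 were 2950, 2802 and 2650 in controls against 4032, 4057 and 4030 in the ApoD overexpression libraries, a log2 fold change of 0.65 ± 0.093. Whether the counting used strand is not given in the sources used here, so reads of the shared bases cannot be assigned to one of them.

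The other transcription factors of the arm did not pass. DDIT3, which encodes the pro-apoptotic factor CHOP and is the usual readout of a strong ATF4 response, was at 18.1, 17.3 and 18.7 CPM in the controls and 17.9, 19.6 and 20.3 CPM with ApoD overexpression. Its groups overlapped, and the log2 fold change was 0.096 ± 0.11 (edgeR adjusted p = 0.499). It shares 355 of 1307 exon bases with MARS1 on the opposite strand, a gene that rose by 0.86 ± 0.11 from 5462, 4386 and 5014 to 7931, 7915 and 9044 counts. ATF3, a stress-induced repressor, was at 21.8, 17.5 and 17.8 CPM in the controls and 16.6, 16.7 and 14.95 CPM with ApoD overexpression and lay below the controls in all 3 libraries, at −0.24 ± 0.13 (edgeR adjusted p = 0.125; 0.031 with library totals). CEBPB and CEBPG, partners with which ATF4 binds DNA, had log2 fold changes of 0.023 ± 0.092 and 0.17 ± 0.12; CEBPG passed as higher without control replicate 3 (0.32, adjusted p = 0.0478 by edgeR).

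Of the feedback genes of the ATF4 arm, PPP1R15A rose. It encodes GADD34, the stress-induced subunit that directs a phosphatase to eIF2 and so ends the response. It was at 20.3, 23.9 and 21.04 CPM in the controls and 27.1, 35.6 and 35.1 CPM with ApoD overexpression, with no overlap between the groups. It rose by 0.58 ± 0.13 on the log2 scale, a fold of 1.498 (edgeR adjusted p = 0.00268). Its constitutive counterpart PPP1R15B was at 83.3, 79.6 and 87.1 CPM in the controls and 99.9, 91.4 and 95.7 CPM with ApoD overexpression, also without overlap but with a smaller shift, 0.20 ± 0.087 (edgeR adjusted p = 0.0777). TRIB3, a pseudokinase that restrains ATF4 and is a target of ATF4 and CHOP, was at 49.8, 52.5 and 52.3 CPM in the controls and 51.3, 62.7 and 57.1 CPM with ApoD overexpression. Its ranges overlapped, and the log2 fold change was 0.15 ± 0.099 (edgeR adjusted p = 0.243).

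The largest fall of the 34 was that of an effector of the ATF4 arm. DDIT4 (REDD1), an inhibitor of mTORC1 that is a target of ATF4 and is also induced by hypoxia and glucocorticoids, was at 564, 791 and 622 CPM in the controls and 323, 277 and 274 CPM with ApoD overexpression. Every ApoD overexpression library lay below every control, and the gene was 2.26-fold lower (log2 fold change −1.18 ± 0.13, edgeR adjusted p = 2.05e-05). Its level varied among the controls and was highest in replicate 2. The hypoxia-induced genes NDRG1 and CA9 were also highest in that library: NDRG1 was at 347, 1048 and 704 CPM in the controls and 139, 116 and 123 CPM with ApoD overexpression, and CA9 at 2.33, 8.18 and 5.75 CPM in the controls and 0.584, 0.873 and 1.096 CPM with ApoD overexpression. Of 15 hypoxia-induced genes 11 fell, 73.3% beside 24.6% of all tested genes. Their summed level was 1215 to 2358 CPM in controls and 853 to 908 CPM with ApoD overexpression. The part of this difference in the fall of DDIT4 was not tested. The controls had the same order in DDIT4 and in the hypoxia sum, which was 1215, 2358 and 1767 CPM in them. The ApoD overexpression libraries did not share 1 order. There the sum was 908, 853 and 861 CPM, lowest in replicate 2, while DDIT4 was lowest in replicate 3. Whether DDIT4 and these genes move together was not tested. Of the 2058 exon bases of DDIT4 in GENCODE, 847 overlap DDIT4-AS1 on the opposite strand, which has no row in the count table.

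**Figure D2:**
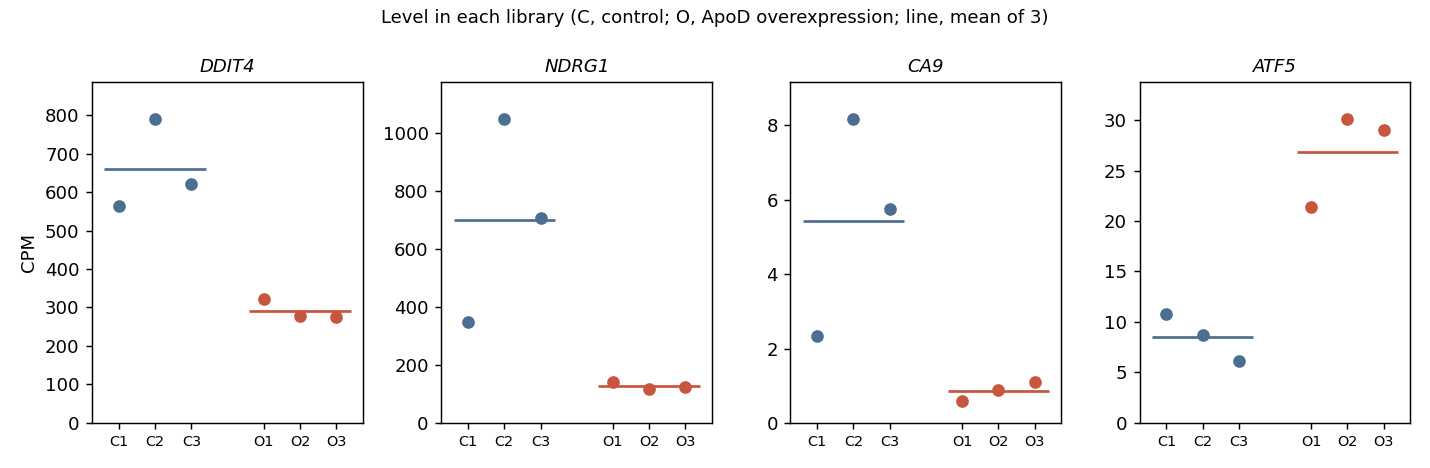
CPM (y axis, from 0) of DDIT4, the hypoxia-induced genes NDRG1 and CA9, and ATF5 in each of the 6 libraries (points; lines are means of 3). DDIT4, NDRG1 and CA9 were all highest in control replicate 2 and lower in each ApoD overexpression library than in any control, while ATF5 was higher in each ApoD overexpression library than in any control.

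STC2, a secreted glycoprotein induced through PERK and ATF4, was at 82.7, 104 and 90.4 CPM in the controls and 112, 121 and 121 CPM with ApoD overexpression. The groups did not overlap, and the rise was 0.35 ± 0.10 (edgeR adjusted p = 0.0129); the call was lost when scaled by library totals (0.23) or once the abundance trend was taken out (0.18). ASNS, asparagine synthetase and a classical ATF4 target, had the lowest level of the 34. Its counts were 32, 47 and 35 in controls against 15, 15 and 31 in the ApoD overexpression libraries, and its mean of 0.299 FPKM in controls exceeded that of only 10.5% of tested genes. The log2 fold change of −0.78 ± 0.46 did not pass (edgeR adjusted p = 0.174), and at such counts a change of this size was not distinguishable from the spread. In GENCODE 1985 of its 4455 exon bases overlap AC079781.5 on the same strand, and 4 pseudogenes carry its name, and how shared reads were counted is not given in the sources used here.

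**Figure D3:**
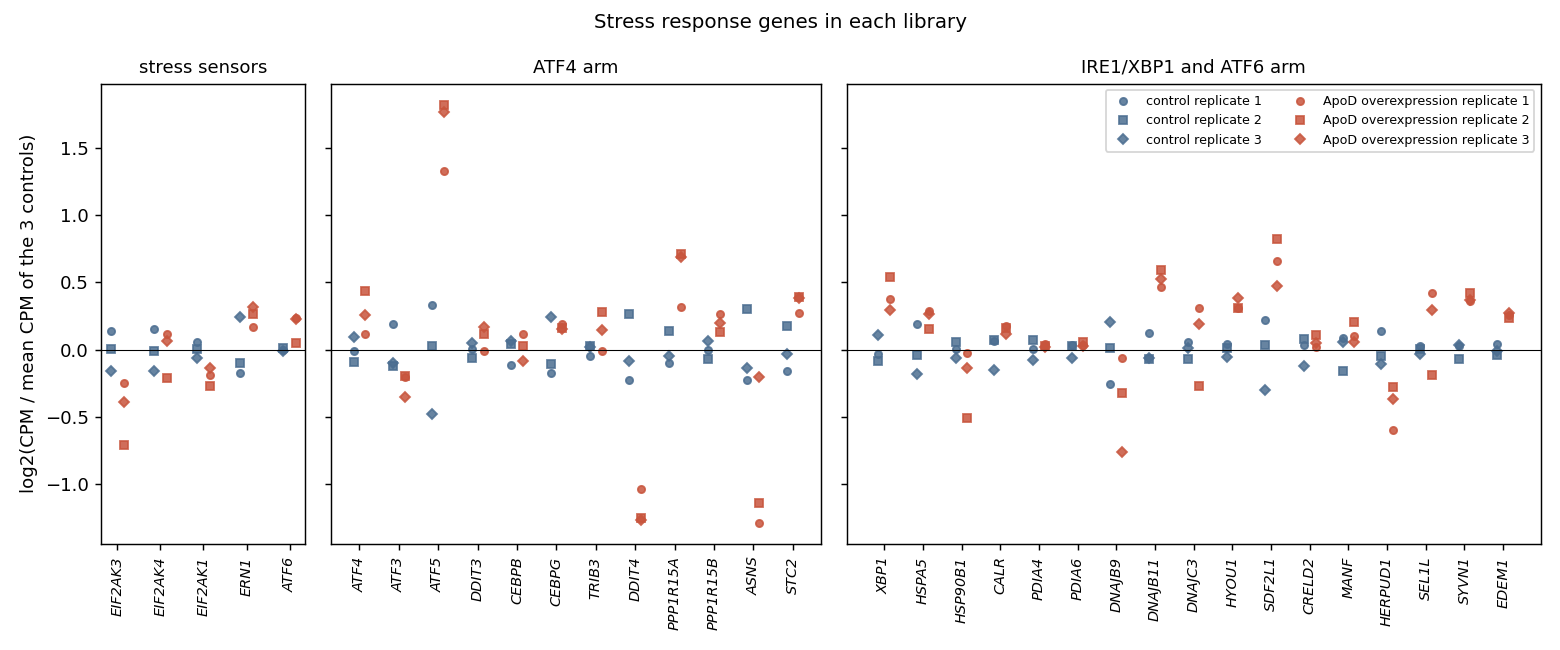
Log2 ratio of each library's CPM to the mean CPM of the 3 controls (y axis) for the 34 genes (x axis) by arm; blue symbols are controls, red symbols ApoD overexpression, and the shape gives the replicate. The groups separated fully for 18 of the 34 genes, 13 upward and 5 downward, and ApoD overexpression replicate 2 lay apart from the other 2 libraries of its group for HSP90B1, SEL1L and DNAJC3.

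Groups that did not overlap in CPM were found for 18 of the 34 genes, 13 of them upward and 5 downward, where 58.7% of all tested genes did not overlap. By arm this was 3 of 5 sensors, 7 of 12 genes of the ATF4 arm and 8 of 17 genes of the IRE1/XBP1 and ATF6 arm. Averaged over the genes of an arm, the log2 CPM relative to the control mean was −0.034, 0.052 and −0.018 in the controls and 0.023, 0.14 and 0.17 with ApoD overexpression for the ATF4 arm. The same mean for the IRE1/XBP1 and ATF6 arm was 0.052, −0.0084 and −0.043 in the controls and 0.19, 0.13 and 0.13 with ApoD overexpression. For the ATF4 arm, ApoD overexpression replicate 1 lay below control replicate 2, while the other arm separated all libraries by group; these means are descriptions without a test, and removing the abundance trend brought the median of the latter arm from 0.15 to 0.0094.

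Promoters of 9 of the 17 genes of the IRE1/XBP1 and ATF6 arm held an exact match to a sequence element through which ATF6 and XBP1 are known to act, and these are shown because the genes that carry them moved in different directions. RefSeq windows on GRCh38.p14, from 250 bases before to 50 after a transcription start, were found for 33 of the 34 genes, with 46 windows in all; EIF2AK1 had none. The ER stress response element (ERSE), searched on both strands as CCAAT, 9 bases of any kind and CCACG, was present in 27 of 35116 windows of all genes, 0.0769%. It was found in 6 of the 17 genes of this arm: HSPA5, HSP90B1, CALR, PDIA6, CRELD2 and XBP1. The second form, ERSE-II, searched on both strands as ATTGG, 1 base of any kind and CCACG, was present in 19 windows, 0.0541%, and in HYOU1, SDF2L1 and HERPUD1. No gene of the ATF4 arm held either form. The arm was listed for its link to XBP1 and ATF6, so these numbers are no test of it. The shares over all genes count windows, while those of the arm count genes. The stretches around the elements are given 5′ to 3′ on the strand of the gene, with the element in capitals.
HSPA5, chr9:125241371-125241429, minus strand: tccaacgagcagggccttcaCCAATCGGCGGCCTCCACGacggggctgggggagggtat
XBP1, chr22:28800583-28800641, minus strand: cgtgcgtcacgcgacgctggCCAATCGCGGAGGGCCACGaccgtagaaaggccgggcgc
PDIA6, chr2:10812833-10812891, minus strand: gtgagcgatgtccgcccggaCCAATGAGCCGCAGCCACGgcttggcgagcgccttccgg
CALR, chr19:12938364-12938422, plus strand: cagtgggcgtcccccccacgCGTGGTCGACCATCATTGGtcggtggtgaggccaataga
CRELD2, chr22:49918534-49918592, plus strand: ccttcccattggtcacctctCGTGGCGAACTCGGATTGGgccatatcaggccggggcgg
HSP90B1, chr12:103930196-103930359, plus strand: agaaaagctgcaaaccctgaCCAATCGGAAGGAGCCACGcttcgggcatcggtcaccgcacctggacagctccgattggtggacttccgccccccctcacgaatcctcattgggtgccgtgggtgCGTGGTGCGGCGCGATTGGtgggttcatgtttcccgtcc
HYOU1, chr11:119057254-119057410, minus strand: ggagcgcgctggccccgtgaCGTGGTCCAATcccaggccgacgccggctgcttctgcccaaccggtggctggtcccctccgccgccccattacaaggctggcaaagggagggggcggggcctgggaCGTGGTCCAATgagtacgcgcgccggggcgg
SDF2L1, chr22:21642094-21642144, plus strand: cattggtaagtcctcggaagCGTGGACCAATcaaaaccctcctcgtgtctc

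Of the 6 genes with ERSE only XBP1 rose, with its element 52 to 34 bases before the start. HSPA5, whose element lies 66 to 48 bases before the start, and PDIA6, CALR, CRELD2 and HSP90B1, the last with an element on each strand, did not pass. Of the 3 genes with ERSE-II, HYOU1 with its 2 copies and SDF2L1 with 1 rose, and HERPUD1 fell. The search was for exact letters, so diverged copies are not counted, and a match describes letters, not binding. A further element bound by XBP1, TGACGTGG, was present in 0.729% of all windows and among the 34 genes in HYOU1, where it overlaps the distal ERSE-II copy.

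The element to which ATF4 binds with C/EBP partners was searched as TGATGNAA on both strands and was present in 3.62% of all windows. It occurred in 4 of the 12 genes of the ATF4 arm, ASNS, ATF3, CEBPG and PPP1R15B, none of which passed the test. In the other arm it occurred in HERPUD1, whose promoter window holds matches to elements of both arms. The 250 bases before its start are shown with both in capitals, the ATF4 type first (reverse strand, 176 to 169 bases before the start) and ERSE-II second (117 to 107 bases before the start).
HERPUD1, chr16:56931892-56932141, plus strand: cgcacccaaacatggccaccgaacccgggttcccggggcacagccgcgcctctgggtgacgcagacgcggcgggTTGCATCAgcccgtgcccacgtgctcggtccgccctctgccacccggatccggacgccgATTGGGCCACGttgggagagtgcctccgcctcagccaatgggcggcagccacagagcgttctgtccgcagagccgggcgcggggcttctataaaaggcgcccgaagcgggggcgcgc

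In the IRE1/XBP1 and ATF6 arm XBP1 rose, while the most abundant chaperones did not pass. XBP1, the transcription factor that IRE1 activates by splicing, was at 59.99, 57.9 and 66.03 CPM in the controls and 79.8, 89.3 and 75.2 CPM with ApoD overexpression. The groups did not overlap, and total XBP1 mRNA rose by 0.41 ± 0.099 on the log2 scale, a fold of 1.33 (edgeR adjusted p = 0.00488). HSPA5, the abundant ER chaperone BiP and the standard marker of the response, was at 1449, 1234 and 1118 CPM in the controls and 1546, 1412 and 1525 CPM with ApoD overexpression. Its groups overlapped, since control replicate 1 exceeded ApoD overexpression replicate 2, and the log2 fold change of 0.24 ± 0.10 did not pass (edgeR adjusted p = 0.0779). Without control replicate 1 HSPA5 passed, with a log2 fold change of 0.35 (edgeR adjusted p = 0.00909). HSP90B1 (GRP94), the ER relative of cytosolic HSP90, was at 1538, 1598 and 1470.04 CPM in the controls and 1513, 1079 and 1398 CPM with ApoD overexpression. Its log2 fold change was −0.21 ± 0.12 (edgeR adjusted p = 0.163), with the lowest value in ApoD overexpression replicate 2, and it passed as lower when scaled by library totals (−0.32) and once the abundance trend was taken out (−0.40).

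Of the remaining folding factors HYOU1 rose. CALR, the lectin chaperone calreticulin, had a log2 fold change of 0.15 ± 0.091, and the disulfide isomerases PDIA4 and PDIA6 had 0.031 ± 0.083 and 0.042 ± 0.082; the edgeR adjusted p of each was at least 0.188. PDIA6 shares 1033 of 4101 exon bases with ATP6V1C2 on the opposite strand, a gene with a log2 fold change of −1.91 ± 0.20. HYOU1, an ER chaperone and exchange factor for BiP, was at 224, 219 and 209 CPM in the controls and 270.2, 270.1 and 285 CPM with ApoD overexpression. It rose by 0.34 ± 0.083 on the log2 scale without overlap (edgeR adjusted p = 0.00517), a call lost with the abundance trend removed (0.14). MANF and CRELD2, small ER proteins that can be secreted under stress, did not pass, at log2 fold changes of 0.12 ± 0.096 and 0.060 ± 0.10 (edgeR adjusted p = 0.311 and 0.656).

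Among the cofactors of BiP, the largest rises of the arm were found. SDF2L1, which works in a complex with DNAJB11, was at 17.4, 15.3 and 12.1 CPM in the controls and 23.6, 26.4 and 20.7 CPM with ApoD overexpression. It rose by 0.66 ± 0.15 on the log2 scale, a fold of 1.58 (edgeR adjusted p = 0.003). Its partner DNAJB11 (ERdj3) was at 99.8, 86.9 and 87.4 CPM in the controls and 126, 138 and 132 CPM with ApoD overexpression and rose by 0.53 ± 0.092, a fold of 1.44 (edgeR adjusted p = 0.000583). For both genes every ApoD overexpression library lay above every control. DNAJB9 (ERdj4), a cofactor that returns BiP to IRE1 and a strong XBP1 target, was at 12.9, 15.6 and 17.8 CPM in the controls and 14.8, 12.4 and 9.11 CPM with ApoD overexpression, with overlapping groups and a log2 fold change of −0.35 ± 0.18 (edgeR adjusted p = 0.126). It passed as lower without control replicate 1 (−0.46) and without ApoD overexpression replicate 1 (−0.49). DNAJC3 (p58IPK), an ER cofactor also known as an inhibitor of PERK, had a log2 fold change of 0.099 ± 0.13 (edgeR adjusted p = 0.564).

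Of the genes for ER-associated degradation, SYVN1 and EDEM1 rose and HERPUD1 fell. HERPUD1, a membrane scaffold of the degradation complex and normally one of the most inducible genes of the response, was at 60.7, 53.3 and 51.2 CPM in the controls and 36.4, 45.5 and 42.8 CPM with ApoD overexpression. Each ApoD overexpression library lay below each control, and the gene fell by 0.41 ± 0.11 on the log2 scale, to a fold of 0.754 (edgeR adjusted p = 0.00982); without ApoD overexpression replicate 1 the log2 fold change was −0.29 and did not pass (adjusted p = 0.0617 by edgeR). SYVN1, the ubiquitin ligase HRD1 of the same complex, was at 27.9, 26.03 and 28.02 CPM in the controls and 35.02, 36.5 and 35.3 CPM with ApoD overexpression. It rose by 0.38 ± 0.097 (edgeR adjusted p = 0.0062) with no overlap; its exons overlap those of FAU and MRPL49, which rose by 0.39 ± 0.12 and 0.43 ± 0.11.

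EDEM1, a mannose-trimming factor that hands glycoproteins to degradation, was at 127, 120.4 and 122 CPM in the controls and 147, 145 and 149 CPM with ApoD overexpression. The groups did not overlap and the spread within each was narrow, with a rise of 0.25 ± 0.082 (edgeR adjusted p = 0.0224). This call was lost in 6 of 12 alternatives, with an adjusted p from 0.012 to 0.492 over them, among them scaling by library totals (0.14) and taking out the abundance trend (0.071), where the fold change itself was smaller, and the fits without control replicate 2 (0.24) or replicate 3 (0.26) or without ApoD overexpression replicate 3 (0.26). SEL1L, the adaptor of HRD1, was at 161, 158 and 155 CPM in the controls and 212, 139 and 194 CPM with ApoD overexpression. The libraries of ApoD overexpression replicates 1 and 3 lay above all controls and replicate 2 below them, and the log2 fold change of 0.20 ± 0.13 did not pass (edgeR adjusted p = 0.23). Without ApoD overexpression replicate 2 SEL1L passed, at 0.35 (edgeR adjusted p = 0.00628).

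Levels were compared between genes as FPKM, counts scaled by gene length and by library totals. CALR was highest at 674 ± 46.1 FPKM (SD, n = 3), followed by HSP90B1 at 574 ± 17.3, DDIT4 at 393 ± 69.98 and HSPA5 at 336 ± 38.1, and the difference between the latter 2 was within their spread. With ApoD overexpression DDIT4 moved from the third to the fifth place, at 160.4 ± 17.1 FPKM, and ATF5 from place 32 to place 26, from 3.2004 ± 0.809 to 9.31 ± 1.53 FPKM. Genes of the IRE1/XBP1 and ATF6 arm ranged from 6.68 to 674 FPKM in controls and those of the ATF4 arm from 0.299 to 393 FPKM. The sensors EIF2AK3 and ERN1 were low, at 4.81 ± 0.388 and 1.06 ± 0.192 FPKM in controls, while EIF2AK1 was at 76.6 ± 1.54 FPKM. DDIT3 was at 15.9 ± 0.884 FPKM in controls and 15.7 ± 0.855 FPKM with ApoD overexpression.

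**Figure D4:**
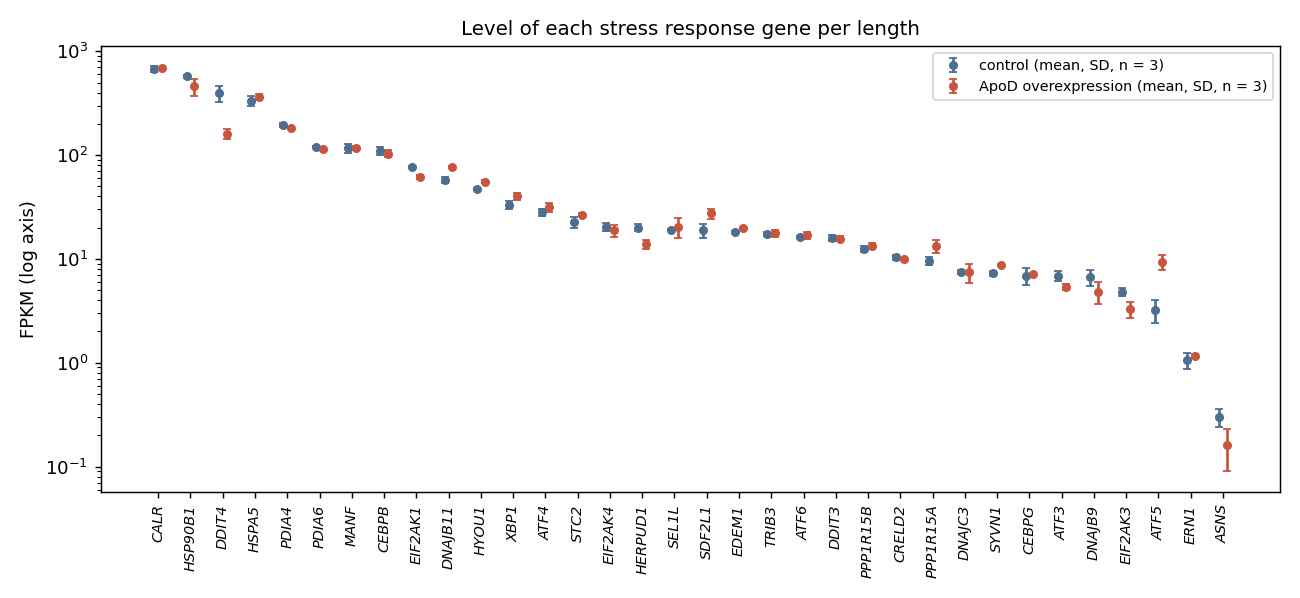
FPKM of each of the 34 genes (y axis, log scale; points are means and bars SD of 3 libraries) in order of the control level (x axis). Controls (blue) and ApoD overexpression (red) ran close together from CALR at the top to ASNS at the bottom, with DDIT4 and ATF5 the widest apart.

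Other genes of the same pathways were read from lists chosen by function. Among 14 genes for eIF2, its exchange factor eIF2B and regulators of the kinases, 7 rose and 1 fell, with a median log2 fold change of 0.26. The share that passed was 57.1%, beside 48.8% of all tested genes. The eIF2B subunits EIF2B3, EIF2B1 and EIF2B5 rose by 0.87 ± 0.14, 0.75 ± 0.098 and 0.57 ± 0.089 on the log2 scale, and OMA1, the mitochondrial protease upstream of HRI, fell by 0.76 ± 0.16. Among 35 tested further targets of ATF4, mostly for amino acid supply, 15 rose and 9 fell, with a median of 0.25. Here 68.6% passed, beside the same 48.8%. The falls were the larger changes: NUPR1, VLDLR, KLHL24 and CTH had log2 fold changes of −2.56 ± 0.44, −2.305 ± 0.48, −1.98 ± 0.20 and −1.77 ± 0.17. The first 2 rest on few counts. NUPR1 had 59, 120 and 147 in controls against 24, 9 and 18 with ApoD overexpression. VLDLR had 61, 160 and 142 against 27, 8 and 33. PSAT1 of serine synthesis and the arginine carrier SLC7A1, named after their values were seen, rose by 1.18 ± 0.12 and 0.84 ± 0.087, and GDF15, named likewise, fell by 1.71 ± 0.19. The median of this list and its mean, −0.18, thus had opposite signs.

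Among 42 tested ER folding and degradation factors outside the 34 genes, 11 rose and 5 fell, 38.1% beside 48.8% of all tested genes. Their median of 0.027 turned to −0.09 when scaled by library totals and to −0.021 once the abundance trend was taken out. The mean was −0.11. The disulfide isomerase AGR2 fell from 527, 702 and 496 counts to 37, 6 and 14, and CRELD1 and the oxidase ERO1B had log2 fold changes of −1.59 ± 0.16 and −1.26 ± 0.19, while UFD1, which draws degradation substrates from the ER, rose by 0.66 ± 0.15. Without control replicate 2 only 4 of this list rose, and without control replicate 3 only 7. Calls over all tested genes also became fewer in these fits, at 36.6% and 40.5%. The median of the list was 0.082 and 0.043 in them, so the lower counts do not reflect a lower median. Of 16 genes of the ER translocon, its signal receptor and signal peptidase 11 rose, 68.8% beside 24.2% of all tested genes. The other 5 did not pass. The median was 0.34, and with the abundance trend removed 6 rose. SRPRB rose by 1.22 ± 0.12, SEC61A1 by 0.86 ± 0.11, SSR3 by 0.62 ± 0.087 and SEC61G by 0.57 ± 0.11.

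A list of heat shock genes had a larger median than either arm. Its 14 genes are mostly cytosolic but include the mitochondrial chaperones HSPD1 and HSPE1. Of the 14 genes 12 rose and 1 fell, 92.9% beside 48.8% of all tested genes. The median log2 fold change was 0.94 (0.83 when scaled by library totals, 0.75 once the abundance trend was taken out). HSPA8, the constitutive cytosolic HSP70, was at 1095, 742 and 747 CPM in the controls and 2730.2, 3388 and 3009 CPM with ApoD overexpression. It rose by 1.82 ± 0.15 on the log2 scale (edgeR adjusted p = 3.86e-06), against 0.24 ± 0.10 for its ER relative HSPA5. HSPH1, HSPA1A and HSPA1B rose by 1.37 ± 0.17, 1.26 ± 0.098 and 1.11 ± 0.10; HSPA1A and HSPA1B are near-identical and can share reads. The differences between the lists were not tested.

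**Figure D5:**
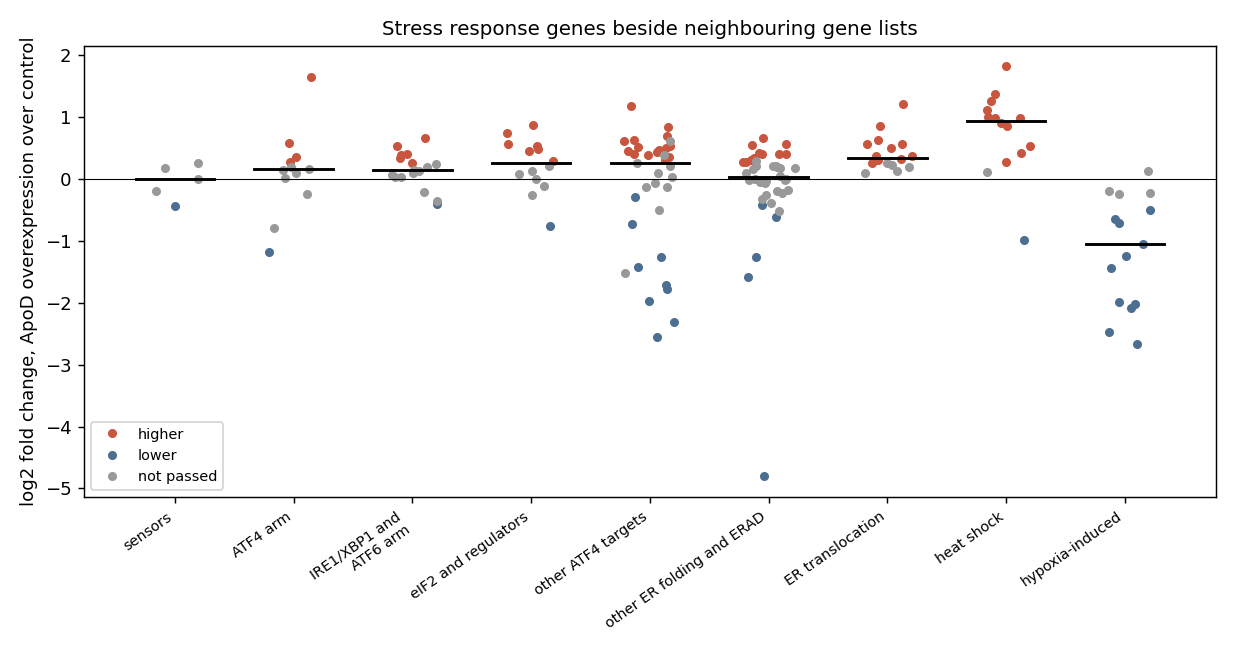
Log2 fold change (y axis) of the tested genes of the sensors, both arms and 6 neighbouring lists (x axis); red points rose, blue points fell, grey points did not pass, and black bars are medians. The medians of both arms, 0.16 and 0.15, lie near 0, that of the heat shock list is 0.94 and that of the hypoxia-induced list −1.05.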

How the data were processed

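Total RNA was isolated by RNeasy Plus Mini kit and made into libraries by SMARTER mRNA-Seq kit, per the labels' protocols. As to aligner, counting program, strand setting and genome build, nothing is given in the sources used here. The authors deposited counts, as whole numbers, with 21676 symbols and 6 libraries, per the file headers. They also deposited FPKM values, all 108650 of which, where above 0, equalled the count divided by the library total and by a single whole-number length per gene (relative tolerance 1e-06); they were used only for levels between genes. Each column was assigned by its match to a sample title.

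Counts were tested over all 6 libraries in edgeR 4.0.16 under R 4.3.3 (quasi-likelihood F test, two-sided), after filterByExpr (minimum count 10), which kept 14629 genes, and TMM scaling; Benjamini-Hochberg adjustment ran over those genes, with a threshold of 0.05. SEs follow from the fold change and F. CPM are counts per 1000000 of the TMM-scaled library. The script was tested on simulated data with 200 changed genes, far fewer than the 7140 called here. That check therefore does not cover how the results depend on scaling. The 34 genes and all lists were chosen with earlier results of these data known, so no list was tested and none is independent evidence. Values are given for all 34 genes and, from each further list, for up to 4 genes past the threshold with the largest changes. Other genes were named after their values were seen. Alternatives were a fit without each library in turn, the replicate number as block, no filter on low counts, the DESeq2 1.42.0 Wald test, and scaling by DESeq2 size factors, by library totals or by loess offsets against abundance (the abundance trend removed); levels were also computed as TPM. Promoter windows came from RefSeq (GRCh38.p14) and exon overlaps from GENCODE 29. Such overlaps were found for 16 of the 34 genes, for 15 of them on the opposite strand. They include EIF2AK3, HYOU1, EDEM1 and DNAJB11, for which they are not described above. A pseudogene named XBP1P1 can share reads of XBP1.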

Additional observations from a re-analysis of the deposited data

How the results depend on the processing

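Counts over all genes kept within 1.5 times of their main values in each alternative, and of the 59 genes named by rule none that passed in the main or the alternative fit changed direction. Among the values of those genes that passed in neither fit, 19 changed sign. Other genes named in the text were not followed through the alternatives. With library totals the median log2 fold change was −0.13 for all genes, 0.031 for the 34 genes (6 lower), −0.12 for the sensors (2 lower), 0.037 for the ATF4 arm (2 higher, 2 lower) and 0.036 for the IRE1/XBP1 and ATF6 arm (2 lower). It was 0.14 for eIF2 and its regulators and also for other ATF4 targets, −0.09 for other ER folding factors (5 higher) and 0.23 for the translocon. The median of the 34 genes lay above that of all genes by 0.17 under TMM, by 0.165 under library totals and by 0.016 after removal of the abundance trend. With that trend removed 6 of the 34 genes were higher and 5 lower (median 0.016). The sensors had a median of −0.17 (2 lower), the ATF4 arm 0.058 (2 higher) and the IRE1/XBP1 and ATF6 arm 0.0094 (2 lower). The further lists had medians of 0.13 for eIF2, 0.059 for ATF4 targets, 0.16 for the translocon (6 higher) and 0.75 for heat shock, and 7 other ER folding factors were higher. Without the low-count filter the medians of the 34 genes and of the eIF2 list were 0.17 and 0.28. The cause of these shifts was not tested.

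Leaving out 1 library at a time gave 0 to 1 higher and 0 to 1 lower sensors with a median from −0.066 to 0.085, and 1 to 2 lower genes in the IRE1/XBP1 and ATF6 arm with a median from 0.16 to 0.24. The eIF2 list had 1 to 2 lower genes and a median from 0.22 to 0.31. Other ER folding factors had 4 to 12 higher and 3 to 5 lower genes and a median from 0.043 to 0.089, and the translocon had a median from 0.30 to 0.41.

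With the replicate number as a block 8 of the 34 genes rose and 3 fell, against 10 and 3, and the calls of ATF4 (edgeR adjusted p = 0.0825) and EDEM1 (0.08) were lost. The deviations of same-numbered libraries from their group means correlated at −0.12 to −0.0057 across genes. Of the 6 libraries 0 correlated best with their own number, so no pairing by number was seen. With 3 libraries per group this check cannot decide whether same-numbered libraries shared a batch. Levels as TPM gave the same order of all 34 genes. Depth limits ASNS, at 15 to 47 counts per library, and few others of the 34.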

Other observations

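Control replicate 1 differed from the other controls, among others in some cytosolic chaperones and hypoxia-induced genes. A chi-square per degree of freedom compared the counts of each pair of libraries across genes. It was 29.6 and 39.5 for control replicate 1 against control replicates 2 and 3, and 11.9 between the latter. ApoD overexpression replicate 2 stood apart in its own group in a similar way. The value was 34.7 and 27.2 against ApoD overexpression replicates 1 and 3, and 11.6 between the latter. Against the ApoD overexpression libraries it was 94.4, 138.5 and 114.1 for control replicate 1 and 155.3 to 206.3 for the other controls. The part of this in the results above was not tested. HSP90AA1, named after its values were seen, was at 1798, 1022 and 921 CPM in the controls and 2657, 1926 and 2838 CPM with ApoD overexpression, so that control replicate 1 lay nearer to ApoD overexpression replicate 2 than to the other controls. HSPH1 was at 249, 159 and 150.1 CPM in the controls and 487, 418 and 539 CPM with ApoD overexpression. In the same library the hypoxia-induced genes ALDOC and ENO2 were the lowest of the controls, with ALDOC at 22.1, 55.4 and 52.5 CPM in the controls and 9.07, 11.3 and 10.4 CPM with ApoD overexpression and ENO2 at 23.2, 55.5 and 49.1 CPM in the controls and 11.9, 9.91 and 9.71 CPM with ApoD overexpression. For these 4 genes control replicate 1 was shifted towards the ApoD overexpression libraries, and the groups still did not overlap. Control replicate 1 was the highest of the controls for 15 of the 34 stress response genes, and control replicates 2 and 3 for 10 and 9. The share over all tested genes was not computed for the highest rank, so the 15 describe no trait of these genes. Control replicate 1 was the lowest for 9, 26.5% beside 37.4% of all tested genes. HSPA5 was highest there and passed without that library. DNAJB11 and SDF2L1 were also highest there, towards the ApoD overexpression values, and HERPUD1 was highest there, away from them. XBP1 and DDIT3 in control replicate 1 lay between the other controls.

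One member of the heat shock list moved against the rest. HSPB1, the small heat shock protein HSP27, was at 782, 877 and 767 CPM in the controls and 414, 431 and 385 CPM with ApoD overexpression and fell by 0.98 ± 0.092 on the log2 scale (edgeR adjusted p = 9.5e-06); it was named after its value was seen.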
